A study of Mus musculus with 120 samples.

Results

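Human chromosome 21 (HSA21) is present in an extra copy in Down syndrome, and the mouse counterparts of its genes lie on several mouse chromosomes. The extra copy raises the dose of many genes at once, among them transcription factors and kinases that can in turn alter the transcripts of other genes. The App gene on it gives the precursor of the amyloid peptide of Alzheimer plaques, and Dyrk1a, Sod1 and the interferon receptor genes have long been studied for their dose in Down syndrome. The genes considered here are 46 mouse orthologs of HSA21 genes with diverse functions, taken as a fixed list of symbols, and the question was how each of them responded when another gene of the same human chromosome was overexpressed. All probesets that the array annotation assigns to one of the listed symbols, and to no other gene, were followed. On the Mouse430_2 array 45 of the 46 genes had such probesets, 140 of 45101 in all, and on the smaller Mouse430A_2 array 42 genes had 93 of 22690. Btg3 was measured only by a probeset shared with Gm7334 and has no value here, and Pcnt, Hspa13 and Synj1 had no probeset of their own on the smaller array. The members lay on chromosomes 16 and 10.

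The study profiled clones of EB3, a mouse embryonic stem (mES) cell line grown with leukemia inhibitory factor, in 20 experiments of 6 arrays each. In each experiment the coding sequence of 1 gene, tagged with 3xFLAG, stood at the ROSA26 locus under a promoter that is silent in tetracycline (Tc) and active without it, with a yellow fluorescent reporter on the same transcript. The induced arrays came from 3 clones after Tc withdrawal and the uninduced arrays from the same clones kept in Tc. The induced genes were Aire, Bach1, Dscr1, Erg, Ets2, Gabpa, Nrip1, Olig1, Pknox1, RIKEN-1810007M14, Hunk, Dyrk1a, Snf1lk, Pdxk, Ripk4, Pfkl, Olig2, Sim2, Zfp295 and Runx1, with human coding sequences for ZFP295, DYRK1A and SNF1LK. By the labels, Tc was withdrawn for 24 hours in 15 experiments, for 39 hours with Hunk, Ripk4 and Sim2, and for 48 hours with Aire and Pdxk. For Pfkl the study itself gives a longer time than the labels, and the label was used here. The Runx1 experiment used the Mouse430A_2 array and the other 19 the Mouse430_2 array. No clone with an empty cassette was among the arrays, so Tc withdrawal and the transgene cannot be told apart within an experiment, and duration, array type and induced gene cannot be told apart between experiments.

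Values are log2 intensities after the robust multi-array average (RMA), computed by the authors for each experiment apart, so the induced and uninduced states were compared within an experiment and within a probeset, and ranks or quartiles within an array serve only to say how bright a probeset was. The difference used throughout is the induced minus the uninduced log2 level of the same clone. A probeset is said to have risen or fallen where limma's test, with the clone as a block and p-values adjusted by Benjamini-Hochberg across the whole array, gave an adjusted p under 0.05. Array medians ran between 4.89 and 5.68 on the Mouse430_2 arrays and between 7.11 and 7.19 on the Mouse430A_2 arrays. The 8 markers of ES cells (Pou5f1, Nanog, Sox2, Zfp42, Esrrb, Klf4, Dppa5a and Tdgf1) ranked between percentile 90 and percentile 100 of all probesets in the uninduced arrays of each experiment. In such bulk samples fewer cells of a type and less RNA per cell cannot be told apart.

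Over the 20 experiments 2753 tests of member probesets were made, and 60 passed, 28 upwards and 32 downwards. They concerned 42 probesets of 27 genes, and 18 genes passed in no experiment. In 60 of the 60 the clones moved the same way, and in 56 the induced and uninduced arrays did not overlap. The test, with the clone as a block, favours probesets whose clones moved alike, so these counts add no support of their own. Erg accounted for 27 of them, Runx1 for 17, Aire for 8, Olig2 for 4, Sim2 for 3 and Nrip1 for 1. The other 14 experiments gave none by limma at the adjusted threshold. Over all 45101 probesets they gave 119 calls with Pdxk, 8 with Ripk4, 3 with Hunk, 1 with Bach1 and 0 in the others. Of the 140 member probesets, 3 (Pknox1) to 30 (Gabpa) had an unadjusted p under 0.05 there. These were 2.14% of the member probesets with Pknox1, against 2.49% of all probesets, and 21.4% with Gabpa, against 11.5%. An ordinary equal-variance test gave 0 member calls in these 14 experiments as well. It is not the Bayesian test (Cyber-t) that the study names, and so says nothing about the study's own counts. A single fit over all Mouse430_2 arrays, which pools the spread of all clones, gave 23 with Gabpa, 13 with Pdxk, 5 with Pfkl and 1 with Bach1, where it called 8.69%, 5.99%, 1.17% and 0.0865% of all probesets in that order. Of the 60 calls, 18 held with any 1 clone left out, namely those of Jam2 (5 probesets), Cryzl1, Col18a1 and Nrip1 (2 probesets each), Adamts1, Ifnar2 and Ripk4 with Erg, and those of Hunk, App, Tiam1 and Tmem50b with Runx1. Whichever clone was left out, 13 calls were lost, namely Cbr1, Cryzl1, Ube2g2 and 2 probesets of Morc3 with Runx1, Pdxk and Son with Erg, Dyrk1a and 1 probeset of Prmt2 with Aire, Prmt2, Tiam1 and 1 probeset of App with Olig2, and Jam2 with Nrip1.

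**Figure D1:**
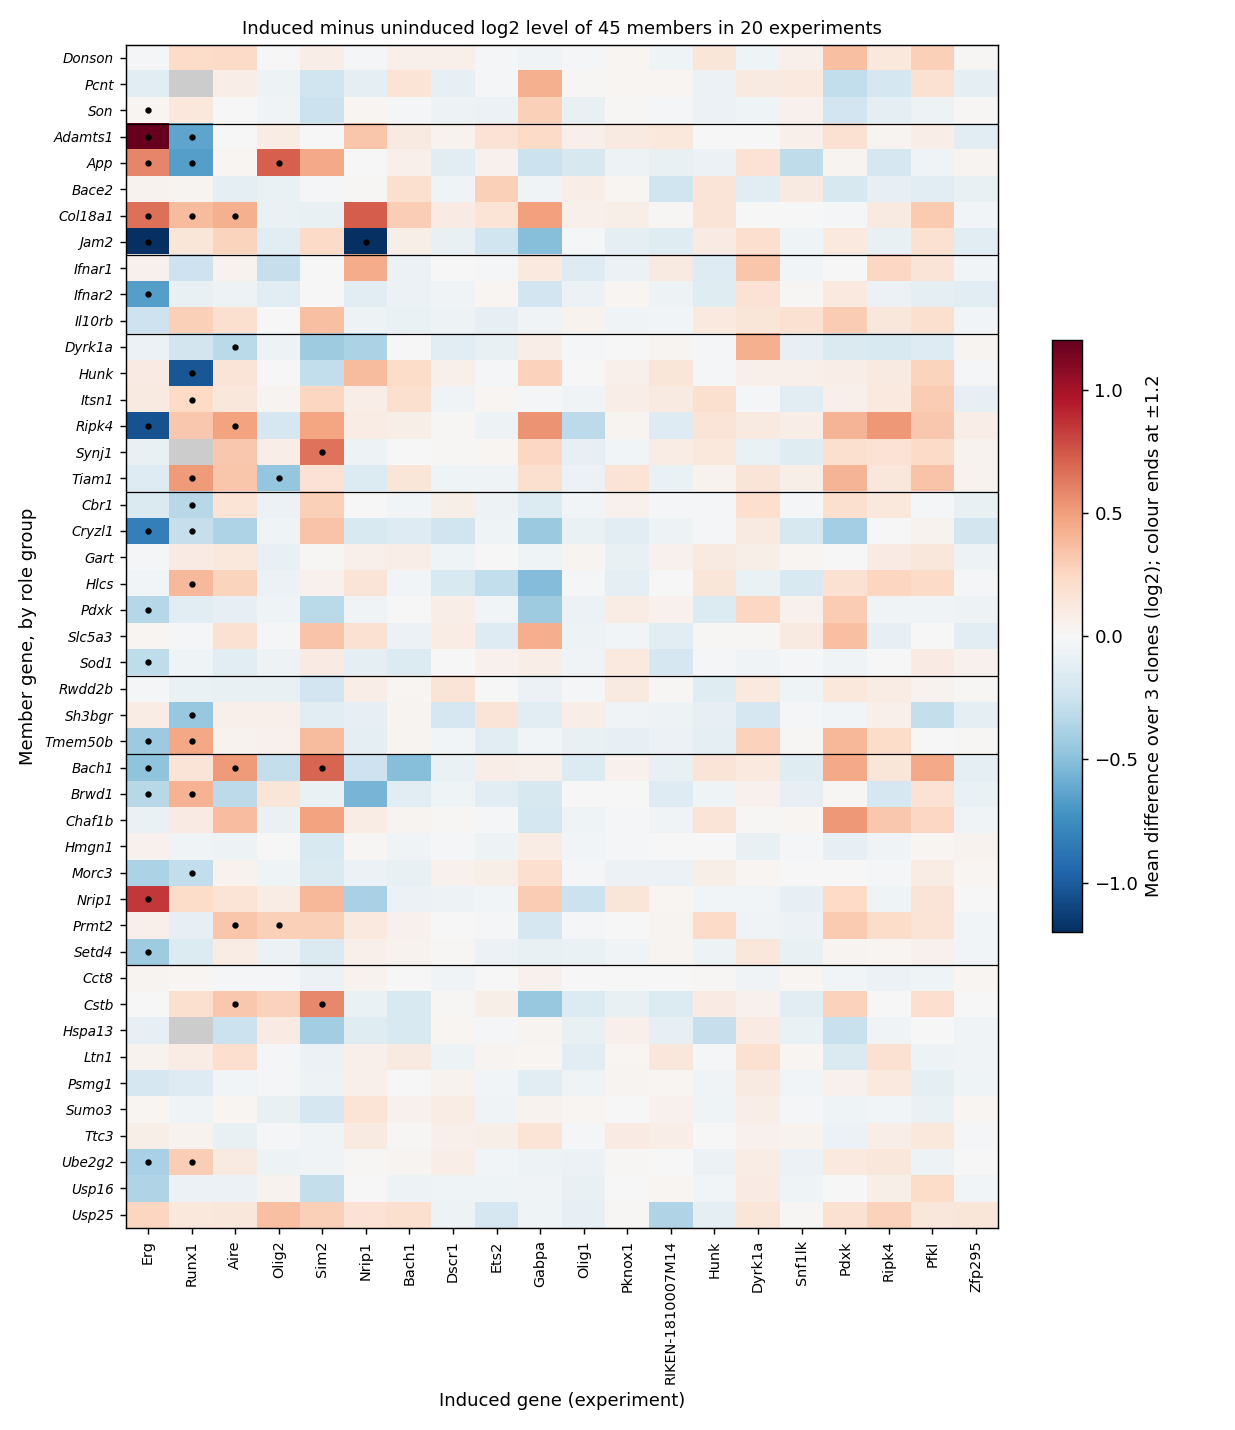
Heat map of the induced minus uninduced log2 difference (mean of 3 clones) of the 45 members, in rows by role, in 20 experiments, in columns; the colour is that of the probeset with the highest level, grey stands for no probeset, and a dot marks a gene with any probeset past the test. The 60 calls fall in the 6 columns on the left. The largest differences are Adamts1 (1.86) and Jam2 (-1.53) with Erg and Jam2 with Nrip1 (-1.37), all beyond the end of the colour scale.

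Erg, a transcription factor of the ETS family, gave the most member calls. Of the 140 member probesets 27 passed (19.3%), 7 upwards and 20 downwards, against 12% of all probesets of the array. These were 4 genes that rose (Adamts1, Nrip1, Col18a1 and App) and 12 that fell (Jam2, Ripk4, Cryzl1, Sod1, Ifnar2, Brwd1, Bach1, Tmem50b, Setd4, Ube2g2, Pdxk and Son). The median difference was -0.03 over member probesets and -0.01 over all probesets. Without clone 1, 2 or 3 the count was 19, 28 and 16.

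Among the genes of cell adhesion and matrix, Jam2, which encodes a junctional adhesion molecule, fell on 5 of 5 probesets. On probeset 1449408_at it read 8.89, 9.56 and 9.04 in the Erg-induced arrays and 10.63, 10.80 and 10.63 in the uninduced arrays. The groups lay far apart, with the second clone the least changed. The differences on the Jam2 probesets were -1.60, -1.53, -1.39, -1.02 and -0.997, with limma adjusted p between 0.000193 and 0.000647.

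Adamts1, a secreted metalloproteinase that cleaves proteoglycans, moved the other way. It read 6.17, 5.89 and 5.93 in the Erg-induced arrays and 3.94, 4.44 and 4.02 in the uninduced arrays. The states lay far apart, and the uninduced arrays sat just above the lower quartile of their experiment (3.63). Its difference was 1.86 ± 0.14 (SE, n = 3 clones), with a limma adjusted p of 0.00024, the largest rise among the member probesets with Erg.

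Col18a1, the collagen from which endostatin is cut, rose on both probesets. Probeset 1426955_at read 10.44, 10.10 and 10.52 with Erg and 9.74, 9.65 and 9.69 without. Its difference was 0.66 ± 0.10, and that of the other probeset 0.70 ± 0.09 (SE, n = 3 clones). App, the precursor of the amyloid peptide, rose on 1 of 4 probesets, 1427442_a_at, by 0.59 ± 0.11. Its arrays overlapped, since the clones differed in level, with 5.95, 6.54 and 6.08 in the induced state and 5.10, 6.25 and 5.45 in the uninduced state. The remaining App probesets had differences of 0.22, -0.10 and -0.11 and did not pass. Bace2, a secretase-type protease that can cleave App, passed in no experiment.

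Nrip1, a nuclear receptor corepressor and itself one of the induced genes of the study, rose with Erg on 3 of 6 probesets. Probeset 1449089_at read 7.29, 7.35 and 7.51 in the Erg-induced arrays and 6.52, 6.43 and 6.65 in the uninduced arrays. No array overlapped, and the difference was 0.85 ± 0.08 (SE, n = 3 clones, limma adjusted p 0.000626). The other 2 probesets of Nrip1 differed by 0.75 and 0.56.

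**Figure D2:**
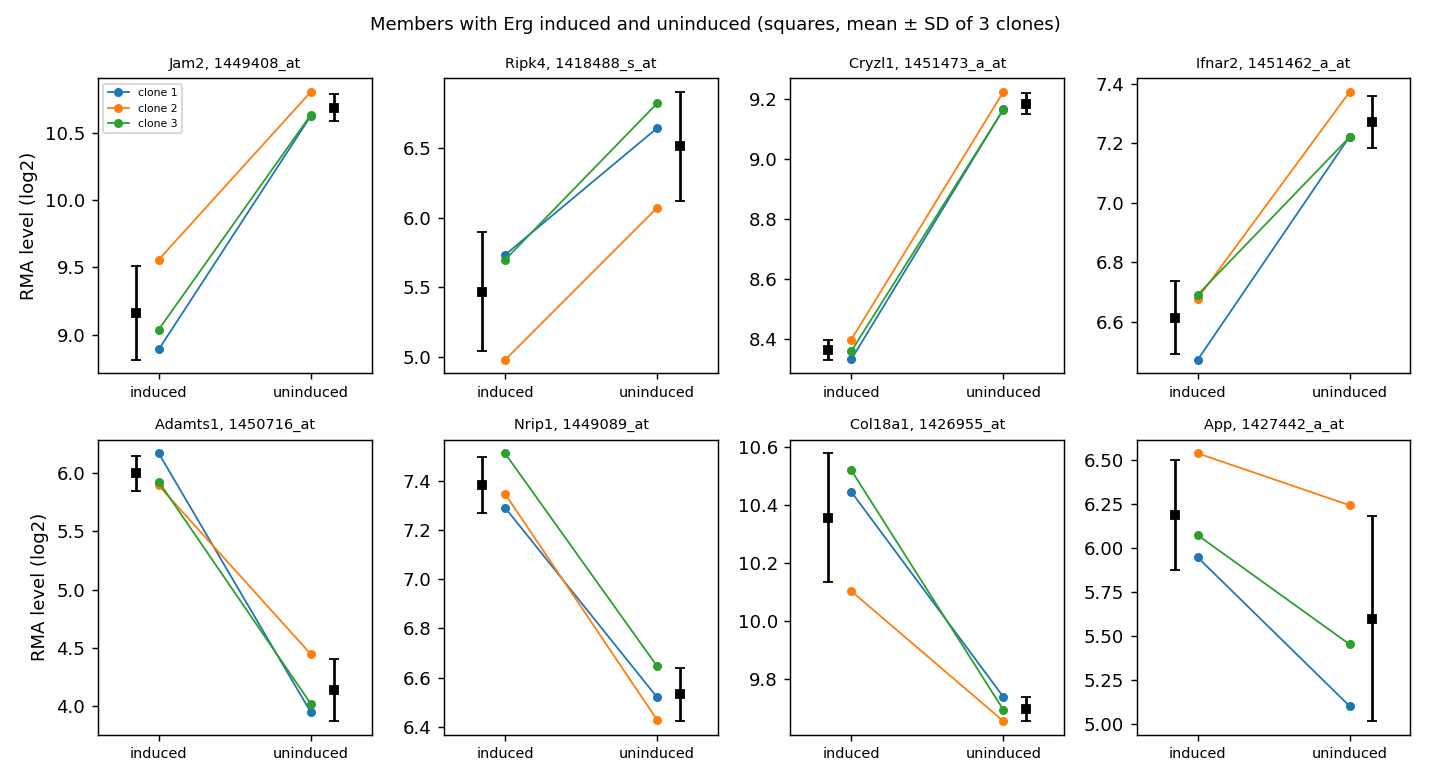
RMA log2 level of 8 members in the Erg experiment, induced on the left and uninduced on the right of each panel; lines join the arrays of 1 clone and squares with bars are the mean ± SD of 3 clones. Jam2, Ripk4, Cryzl1 and Ifnar2 lie lower in the induced state, and Adamts1, Nrip1, Col18a1 and App lie higher, with App the panel whose states overlap.

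Of the 6 genes of kinases and signalling, Ripk4, a kinase needed for keratinocyte differentiation, fell with Erg. It read 5.73, 4.98 and 5.70 in the induced arrays and 6.64, 6.07 and 6.82 in the uninduced arrays of probeset 1418488_s_at. The difference was -1.04 ± 0.08 (SE, n = 3 clones), and its second probeset, with -0.34, did not pass. Among the 3 cytokine receptor genes, Ifnar2, a chain of the type I interferon receptor, fell on 1 of 3 probesets, by 0.66 (log2). The remaining Ifnar2 probesets had differences of -0.23 and -0.11 and did not pass. The partner chain Ifnar1 had a difference of 0.05 and the interleukin 10 receptor chain Il10rb one of -0.25, and neither passed.

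Among the 7 genes of metabolism and transport, Cryzl1, a quinone oxidoreductase-like protein, fell on 3 probesets. It read 8.33, 8.40 and 8.36 in the Erg-induced arrays and 9.17, 9.22 and 9.16 in the uninduced arrays of probeset 1451473_a_at. The difference was -0.82 ± 0.08 (SE, n = 3 clones), and the clones gave -0.83, -0.82 and -0.80. On the further 2 probesets it fell by 0.64 and 0.47. Pdxk, the kinase that activates vitamin B6, fell on 1 of 3 probesets, by 0.34, and the others had -0.25 and -0.06. For Sod1, the cytosolic superoxide dismutase, 1 of 5 probesets fell, with 6.45, 6.48 and 5.51 in the induced arrays and 6.94, 6.91 and 6.74 in the uninduced arrays. Its clone 3 moved most, and the probeset of highest level had a difference of -0.31 that did not pass (limma adjusted p 0.057). Gart, an enzyme of purine synthesis, and Slc5a3, a myo-inositol transporter, passed in no experiment.

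In the group of transcription and chromatin, Bach1, a repressor of heme and oxidative stress genes, fell on both probesets, by 0.48 and 0.46. Brwd1, a bromodomain protein, fell on 2 of 5 probesets, by 0.55 and 0.48. Setd4, a SET-domain methyltransferase, fell on 1 of 3 probesets, by 0.43, and the others had -0.41 and -0.12 and did not pass. The 3 probesets of Morc3, a nuclear ATPase, had differences of -0.38, -0.45 and -0.35 with Erg, and none passed. Ube2g2, a ubiquitin-conjugating enzyme of protein quality control, fell on 1 of 2 probesets, by 0.39, and Tmem50b, a membrane protein, by 0.43. The second Ube2g2 probeset had -0.20 and did not pass. Son, a splicing cofactor, fell on 1 of 7 probesets by 0.29, while the other probesets of Son ran between -0.03 and 0.25, so its probesets disagreed in sign.

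On mouse chromosome 16 the genes Ifnar2, Il10rb, Ifnar1, Tmem50b, Gart, Son, Donson, Cryzl1 and Itsn1 follow each other in this order among the members. With Erg, Ifnar2, Tmem50b, Son and Cryzl1 of these fell, and Il10rb, Ifnar1, Gart, Donson and Itsn1 did not pass. Son fell on only 1 of its 7 probesets, and Il10rb had a difference of -0.25. Whether neighbours responded alike was not tested. Of 65 other HSA21 orthologs outside the list, 2 rose and 12 fell with Erg on the probeset of highest level.

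Markers of the cell state moved in the same arrays. Of the 8 ES cell markers 5 fell with Erg, among them Nanog by 1.13, and their summed log2 level lay between 95.1 and 96.5 in the induced arrays and between 98.5 and 99.9 in the uninduced arrays. The summed level of 4 fibroblast (feeder) markers lay between 23.6 and 23.9 in the induced arrays and between 21.2 and 22.5 in the uninduced arrays. Only 1 of the 4 was called, and their median difference was 0.03, so the sum does not show a rise of the 4 as a set. The part of the ES cell and fibroblast markers in the member differences was not tested.

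Runx1, the Runt-domain factor of blood cell formation, gave the second most member calls, on the smaller array. Of the 93 member probesets on its array 17 passed (18.3%), 8 upwards and 9 downwards, against 16.2% of all probesets of that array. The median difference was 0.02 over member probesets and -0.03 over all probesets. Without clone 1, 2 or 3 the counts were 8, 9 and 8. The share of members that passed was thus near that of the whole array.

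The largest change was in Hunk, a kinase related to AMPK, which was also one of the induced genes of the study. Hunk read 7.67, 7.55 and 7.80 in the Runx1-induced arrays and 8.74, 8.52 and 8.83 in the uninduced arrays. All induced arrays lay below all uninduced ones, and the clones gave nearly one value. Its difference was -1.03 ± 0.06 (SE, n = 3 clones, limma adjusted p 0.000613). With Erg the same probeset of Hunk had a difference of 0.10.

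App fell with Runx1 on 1 of 4 probesets, 1427442_a_at, to 6.22, 6.005 and 6.26 in the induced arrays, against 6.83, 6.80 and 6.84 in the uninduced arrays. The arrays did not overlap, and the difference was -0.66 ± 0.07 (SE, n = 3 clones). The other App probesets had differences of -0.37, -0.01 and 0.12 and did not pass. Adamts1 fell by 0.64 and Sh3bgr, a gene for a small glutamic acid-rich protein, by 0.45. Against the lower quartile of that experiment (5.03), the mean level of Adamts1 was 4.78 in the induced arrays and 5.42 in the uninduced arrays, and that of Sh3bgr was 4.21 in the induced arrays and 4.67 in the uninduced arrays, so both were dim. Morc3 fell on 3 of 3 probesets, by 0.44, 0.29 and 0.25. Cbr1, a carbonyl reductase, fell by 0.33, and Cryzl1 by 0.28.

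Tiam1, an activator of the small GTPase Rac, rose on 1 of 2 probesets, 1418057_at. It read 8.24, 7.97 and 8.35 in the Runx1-induced arrays and 7.71, 7.57 and 7.75 in the uninduced arrays, a difference of 0.51 ± 0.07 (SE, n = 3 clones), and its other probeset had -0.14 and did not pass. Tmem50b rose by 0.47, Brwd1 by 0.42 and 0.41 on 2 of 4 probesets, and Hlcs, the enzyme that attaches biotin to carboxylases, by 0.39. The other Brwd1 probesets had 0.18 and -0.15 and did not pass. Col18a1 and Itsn1, an endocytic scaffold, each rose by 0.38, and Ube2g2 by 0.30. For Itsn1 this was 1 of 5 probesets, and another Itsn1 probeset had -0.19. For Col18a1 and for Ube2g2 it was 1 of 2 probesets. Of 57 other HSA21 orthologs on this array 2 rose and 4 fell. With Runx1 5 of the 8 ES cell markers fell as well, and their summed log2 level lay between 98.7 and 99.4 in the induced arrays and between 101.7 and 102.1 in the uninduced arrays. Their part in the member differences was not tested.

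Of the 93 member probesets on both arrays, 8 (8.6%) passed with both Erg and Runx1, against 5.61% of the 22690 probesets on both arrays. In 6 of the 8 (6.45% of 93), from 5 genes, the directions were opposite, against 2.01% of the 22690. None of these 6 probesets kept both of its calls under the removal of each clone in turn. Adamts1 had 1.86 with Erg and -0.64 with Runx1, and App had 0.59 with Erg and -0.66 with Runx1. The reverse held for Tmem50b (-0.43 with Erg, 0.47 with Runx1), Brwd1 (-0.55 and -0.48 with Erg, 0.42 and 0.41 with Runx1) and Ube2g2 (-0.39 with Erg, 0.30 with Runx1). Only 2 probesets passed with both in the same direction, namely Col18a1 (0.66 with Erg, 0.38 with Runx1) and Cryzl1 (-0.82 with Erg, -0.28 with Runx1). The arrays of the 2 experiments were normalized apart and differ in type, so the difference between the experiments was not tested.

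**Figure D3:**
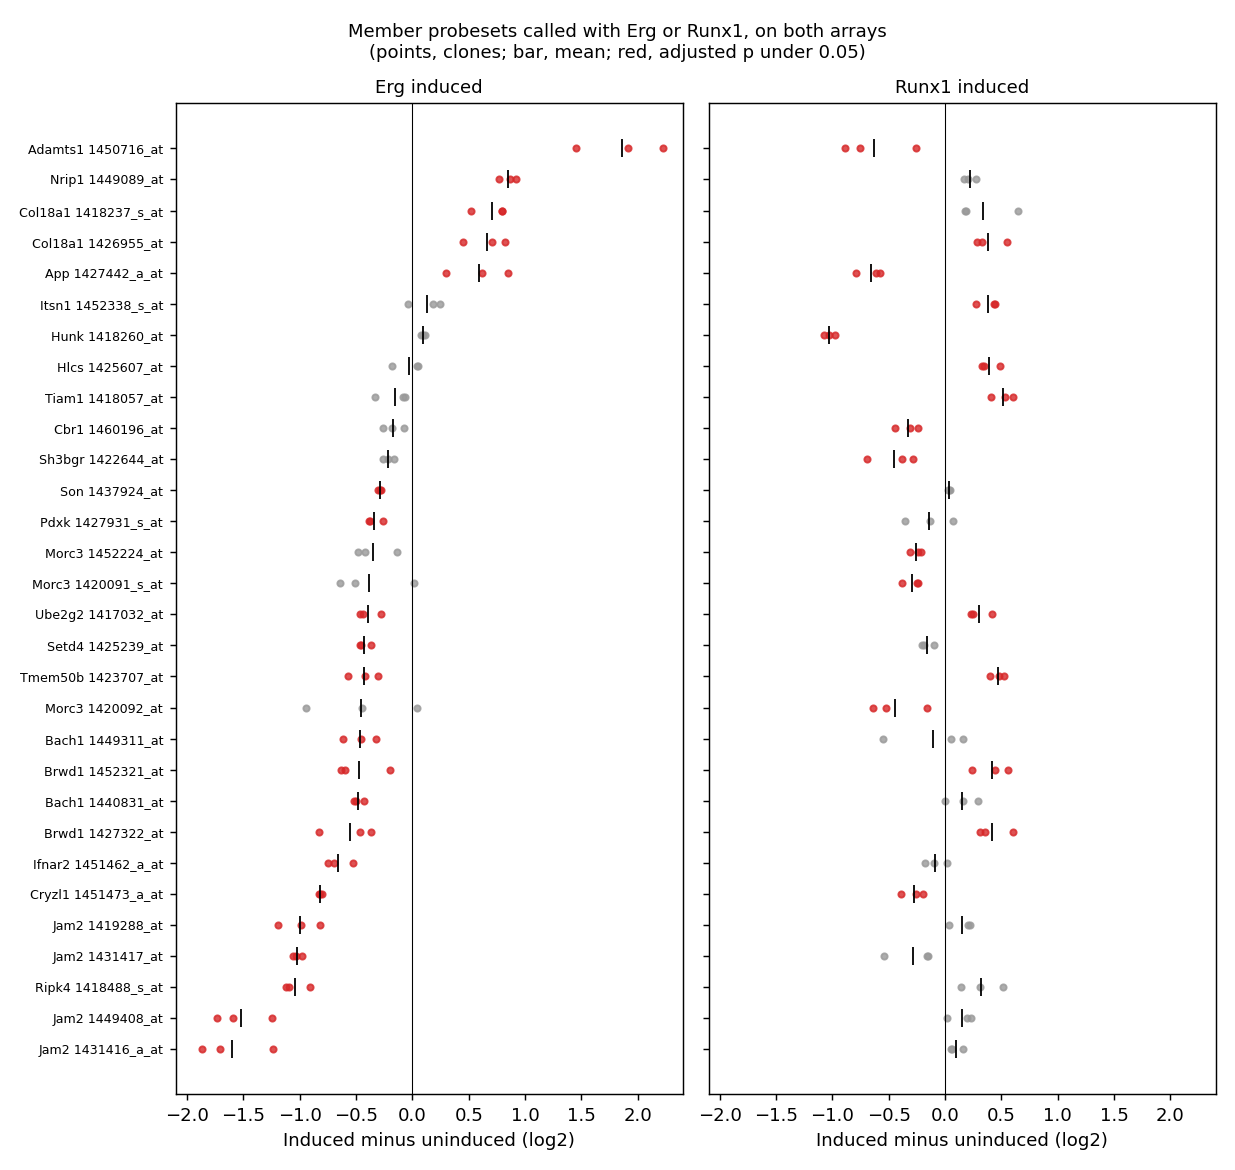
Induced minus uninduced log2 difference of the member probesets that passed with Erg or Runx1 and are on both arrays, with Erg on the left and Runx1 on the right; points are the 3 clones, bars the mean, and red marks an adjusted p under 0.05. Adamts1 and App lie right of 0 with Erg and left of 0 with Runx1, and Tmem50b, Brwd1 and Ube2g2 lie the other way round.

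ETS factors such as Erg bind sequences around GGAA, and Runx1 binds TGTGGT. RefSeq promoter windows (250 bases before to 50 after a start site, build GRCm38.p6) were given for 37 of the 46 members. The ETS octamer CCGGAAGT was in a window of 5 members (Cct8, Gart, Ifnar1, Setd4 and Usp16), 13.5% of the 37, against 4.31% of 27025 genes, both strands searched. TGTGGT was in 4 members (Col18a1, Hmgn1, Ltn1 and Tiam1), 10.8%, against 18.9% of all genes. Of the 13 genes that passed with Erg and had a window, 1 held CCGGAAGT, namely Setd4. Of the 12 that passed with Runx1 and had a window, 2 held TGTGGT, Col18a1 and Tiam1. A match is a description of letters and not of a binding site.

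The windows printed here are those of the genes with opposite responses that had one, followed by the 3 genes with a match, in capitals, each read 5′ to 3′ on the gene's strand (minus for all 7). They are Adamts1 (chr16:85803064-85803363), App (chr16:85173658-85173957), Brwd1 (chr16:96082379-96082678), Tmem50b (chr16:91597631-91597930), Setd4 (chr16:93603766-93604065), Col18a1 (chr10:77113656-77113955, 1 of 2 starts) and Tiam1 (chr16:89818303-89818602, 1 of 2 starts). In the first 4 neither motif occurred.
Adamts1: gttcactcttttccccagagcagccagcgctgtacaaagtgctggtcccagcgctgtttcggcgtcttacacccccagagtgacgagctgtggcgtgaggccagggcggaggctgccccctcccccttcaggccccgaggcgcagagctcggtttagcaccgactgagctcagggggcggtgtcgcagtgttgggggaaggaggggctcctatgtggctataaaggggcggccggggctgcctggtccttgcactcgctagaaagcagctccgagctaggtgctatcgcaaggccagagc
App: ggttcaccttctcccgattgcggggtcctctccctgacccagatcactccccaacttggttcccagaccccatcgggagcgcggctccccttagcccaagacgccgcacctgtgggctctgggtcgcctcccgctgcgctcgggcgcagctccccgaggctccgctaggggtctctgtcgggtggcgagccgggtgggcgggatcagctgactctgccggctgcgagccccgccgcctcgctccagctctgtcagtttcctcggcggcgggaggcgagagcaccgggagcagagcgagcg
Brwd1: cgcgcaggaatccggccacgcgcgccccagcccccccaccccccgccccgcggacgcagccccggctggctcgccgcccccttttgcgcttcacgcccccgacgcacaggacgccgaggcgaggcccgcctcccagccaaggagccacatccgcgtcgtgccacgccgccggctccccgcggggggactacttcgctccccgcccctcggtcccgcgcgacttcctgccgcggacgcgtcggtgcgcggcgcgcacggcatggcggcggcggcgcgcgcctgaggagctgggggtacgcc
Tmem50b: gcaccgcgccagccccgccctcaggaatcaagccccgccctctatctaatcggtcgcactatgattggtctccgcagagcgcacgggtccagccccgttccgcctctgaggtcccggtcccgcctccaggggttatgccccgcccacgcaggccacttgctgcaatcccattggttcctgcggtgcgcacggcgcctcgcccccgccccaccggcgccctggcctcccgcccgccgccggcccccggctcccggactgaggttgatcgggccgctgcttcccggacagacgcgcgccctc
Setd4: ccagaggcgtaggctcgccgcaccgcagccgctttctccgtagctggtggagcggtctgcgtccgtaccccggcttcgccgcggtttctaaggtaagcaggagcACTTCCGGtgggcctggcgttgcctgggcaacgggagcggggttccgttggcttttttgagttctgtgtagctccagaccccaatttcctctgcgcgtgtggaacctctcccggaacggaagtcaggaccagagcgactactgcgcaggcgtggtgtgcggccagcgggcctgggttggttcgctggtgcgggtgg
Col18a1: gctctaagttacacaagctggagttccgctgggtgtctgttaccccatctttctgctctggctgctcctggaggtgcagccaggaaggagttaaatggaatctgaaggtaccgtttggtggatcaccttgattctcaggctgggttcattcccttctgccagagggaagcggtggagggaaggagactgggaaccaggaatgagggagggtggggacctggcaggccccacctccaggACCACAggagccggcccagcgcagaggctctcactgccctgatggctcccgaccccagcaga
Tiam1: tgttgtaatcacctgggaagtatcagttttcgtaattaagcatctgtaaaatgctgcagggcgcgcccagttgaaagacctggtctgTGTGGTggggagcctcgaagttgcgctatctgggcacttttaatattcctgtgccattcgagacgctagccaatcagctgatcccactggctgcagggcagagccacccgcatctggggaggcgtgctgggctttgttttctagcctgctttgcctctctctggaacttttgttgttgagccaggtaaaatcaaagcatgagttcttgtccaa

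Aire, the factor that drives tissue-restricted genes in the thymus, was profiled after 48 hours. Of the 140 member probesets 8 passed (5.71%), 7 upwards and 1 downwards, against 3.93% of all probesets. Without clone 1, 2 or 3 the counts were 11, 5 and 0. Bach1 rose on both probesets, and 1440831_at read 9.37, 9.14 and 9.21 in the Aire-induced arrays and 8.70, 8.74 and 8.75 in the uninduced arrays. The states were clearly apart, with differences of 0.51 and 0.65. Ripk4 rose by 0.48 and Prmt2, an arginine methyltransferase, by 0.43 and 0.33 on 2 of 2 probesets. Col18a1 rose by 0.42 and Cstb, the cystatin that inhibits lysosomal cathepsins, by 0.40, with overlapping arrays in both. Ripk4, Col18a1 and Cstb each passed on 1 of 2 probesets. Dyrk1a, a kinase of brain growth, was the member that fell, with 8.19, 8.18 and 8.04 in the induced arrays and 8.58, 8.48 and 8.31 in the uninduced arrays. Its other 2 probesets had differences of -0.06 and -0.06.

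With Olig2, a factor of oligodendrocyte and motor neuron fate, 4 member probesets passed (2.86%), 3 upwards and 1 downwards, against 1.76% of all probesets. App rose on 2 probesets, by 0.72 and 0.48. Probeset 1427442_a_at of App read 6.24, 5.98 and 6.78 in the Olig2-induced arrays and 5.65, 5.53 and 5.66 in the uninduced arrays, with clone 3 the highest. Prmt2 rose by 0.41 on 1 of 2 probesets, and Tiam1 fell by 0.46 on 1 of 3, with overlapping arrays. Without clone 1, 2 or 3 the counts were 0, 1 and 0. The summed log2 level of the 4 fibroblast markers lay between 21.4 and 22.3 in the Olig2-induced arrays and between 20.6 and 21.2 in the uninduced arrays. Of the 4, 1 was called upwards, and their median difference was 0.16. The part of these markers in the member differences was not tested.

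With Sim2, a midline transcription factor, 3 member probesets rose (2.14%) and none fell, against 0.914% of all probesets. Cstb read 10.69, 10.76 and 11.03 in the Sim2-induced arrays and 10.04, 9.96 and 10.33 in the uninduced arrays, a difference of 0.72 ± 0.10 (SE, n = 3 clones). Bach1 rose by 0.70 ± 0.10 with 9.45, 9.23 and 9.80 in the induced arrays and 8.83, 8.48 and 9.08 in the uninduced arrays. Synj1, a phosphatase of synaptic vesicle recycling, rose by 0.65 ± 0.10 on 1 of 4 probesets. Cstb and Bach1 each passed on 1 of 2 probesets, and the other Cstb probeset, of higher level, had 0.58 and did not pass. The states of none of the 3 passing probesets overlapped, and their limma adjusted p lay between 0.0426 and 0.0484. Without clone 1, 2 or 3 the counts were 0, 0 and 3, and with the numbers of clones 1 and 2 crossed the count was 0.

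With Nrip1 the single passing probeset (0.714% of 140, against 0.135% of all probesets) was one of Jam2. Probeset 1431417_at of Jam2 read 7.91, 6.58 and 7.73 in the Nrip1-induced arrays and 8.89, 8.02 and 8.77 in the uninduced arrays. Its difference was -1.15 ± 0.12 (SE, n = 3 clones, limma adjusted p 0.0437), and with any 1 clone left out the count was 0. The other Jam2 probesets had differences of -1.69, -1.49, -1.37 and -1.31, with adjusted p between 0.0725 and 0.104. On 1449408_at the arrays read 9.21, 7.71 and 9.15 in the induced state and 10.17, 9.90 and 10.09 in the uninduced state. The states did not overlap on any of the 5 Jam2 probesets, and clone 2 moved most, which widened the spread. Col18a1 read 10.71, 11.06 and 10.89 in the induced arrays and 10.11, 10.19 and 10.17 in the uninduced arrays on 1426955_at, a difference of 0.73 that missed the threshold (adjusted p 0.0555). The summed level of the 8 ES cell markers lay between 93.2 and 96.4 in the Nrip1-induced arrays and between 97.2 and 98.6 in the uninduced arrays, with 0 of 8 called, and its part in these values was not tested.

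Whether responses differed among the induced genes was tested with limma's moderated F-test over the 19 experiments on the Mouse430_2 array. It passed for 40 of the 140 member probesets (28.6%, 27 genes), against 16.2% of all probesets. Probesets of 1 gene count separately, and the list was chosen with earlier results of these data known, so the shares are not of like sets. Jam2 had the smallest p, with 5 of 5 probesets past the test and differences on 1449408_at between -1.53 with Erg and 0.27 with Aire. Next came Bach1 (-0.51 with Bach1 to 0.70 with Sim2), Adamts1 (-0.13 with Zfp295 to 1.86 with Erg) and Cstb (-0.47 with Gabpa to 0.72 with Sim2 on 1422507_at). Cryzl1 ran between -0.82 with Erg and 0.34 with Sim2, and Ifnar1, which had passed in no single experiment, between -0.28 with Olig2 and 0.44 with Nrip1. Pdxk on 1427930_at ran between -0.53 with Gabpa and 0.67 with Pdxk, Ripk4 between -1.04 with Erg and 0.54 with Gabpa, Tmem50b between -0.43 with Erg and 0.40 with Pdxk, and Ifnar2 between -0.66 with Erg and 0.18 with Dyrk1a. With the Erg experiment left out, 28 member probesets passed. Without clone 1, 2 or 3 of each experiment the counts were 12, 33 and 10.

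**Figure D4:**
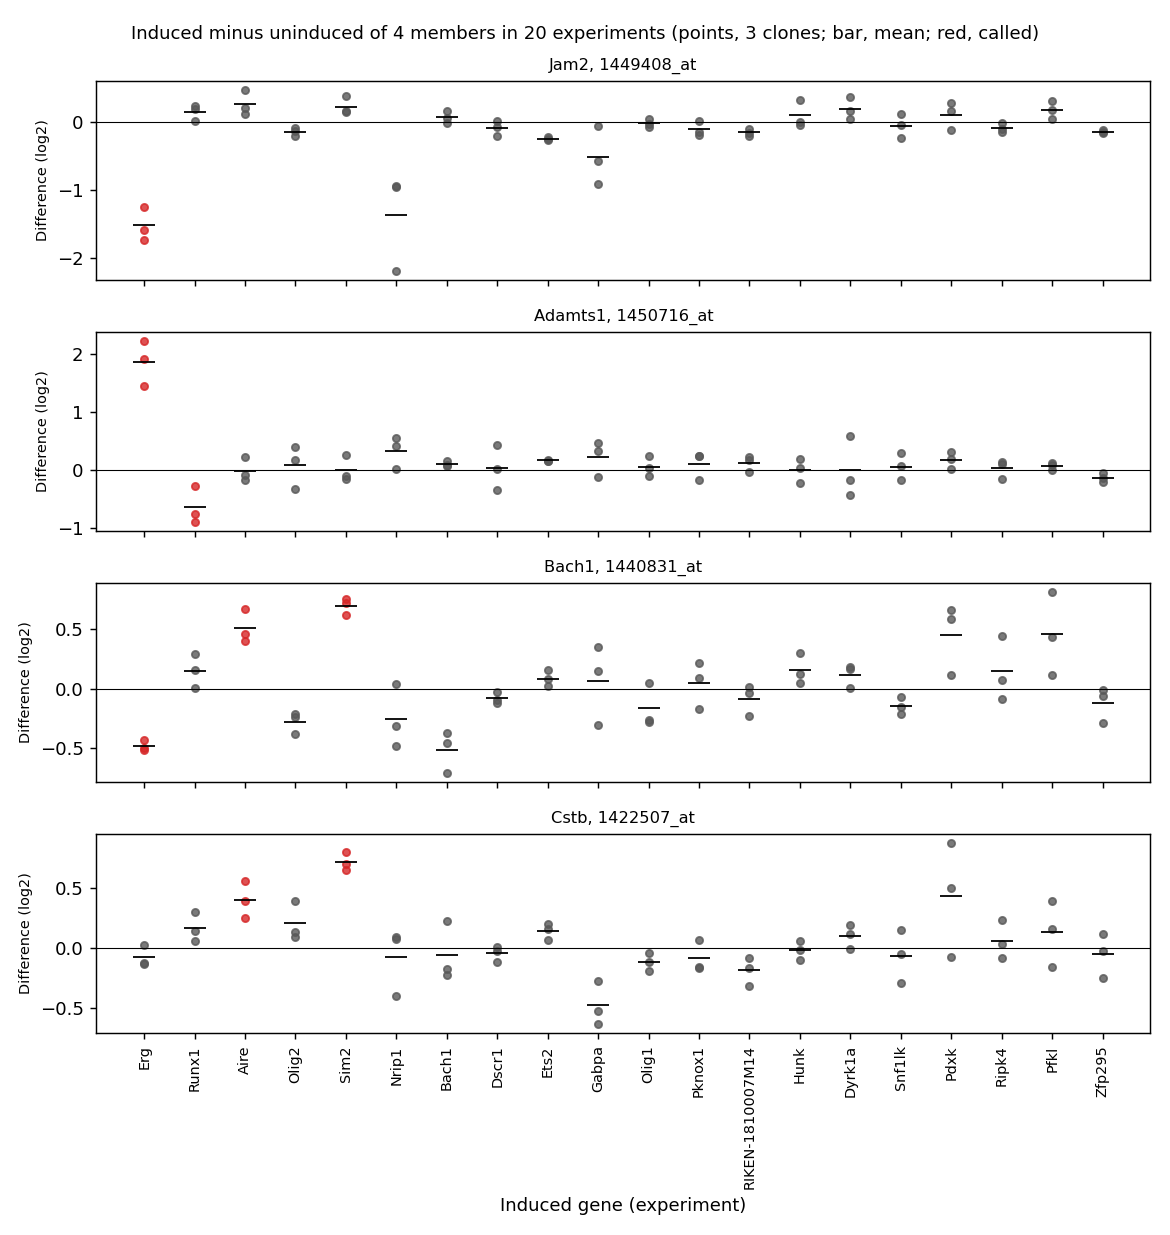
Induced minus uninduced log2 difference of Jam2, Adamts1, Bach1 and Cstb (1 probeset each) in 20 experiments; points are the 3 clones, bars the mean, and red marks experiments in which the probeset passed. Jam2 lies near 0 outside Erg, Nrip1 and Gabpa, Adamts1 passed upwards with Erg (1.86) and downwards with Runx1 (-0.64), and Bach1 and Cstb reach their highest values with Sim2.

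A response common to all inductions, which share the withdrawal of Tc, was sought by testing the mean difference of the 19 experiments against 0. No member probeset passed limma's adjusted threshold, against 0.0554% of all probesets, while 29 of the 140 (20.7%) had an unadjusted p under 0.05, against 13.4% of all probesets. Hspa13, a chaperone of the HSP70 family, had the smallest p, with a mean difference of -0.12 ± 0.03 (SE, n = 19 experiments, adjusted p 0.0845) and a value above 0 in 2 of 19 experiments. Cryzl1 averaged -0.18 ± 0.05 on 1430547_s_at and Col18a1 0.18 ± 0.05 on 1426955_at, above 0 in 3 and 14 experiments. Leaving out any 1 experiment gave 0 as well.

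For 6 members the gene was itself induced in an experiment, and 17 probesets measured them there. None passed (limma adjusted p 0.0948 or more). The transgenes hold only the coding sequence, so a probeset in an untranslated region measures the cell's own transcript, and where these probesets lie was not examined. Pdxk on 1427930_at read 8.44, 8.25 and 7.83 in its induced arrays and 7.52, 7.41 and 7.58 in the uninduced arrays, a difference of 0.67 with clone 3 the smallest. The other Pdxk probesets had 0.30 and -0.04. Dyrk1a, induced as the human sequence, had 0.43, 0.20 and 0.10, with no overlap of states on any of its 3 probesets.

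Ripk4 had 0.52 and 0.08 in its own experiment, and Hunk -0.02. For Bach1 and Nrip1 the own-experiment differences lay below 0. Bach1 on 1440831_at read 8.43, 8.59 and 7.98 in the Bach1-induced arrays and 8.89, 8.96 and 8.69 in the uninduced arrays, a difference of -0.51 (unadjusted limma p 0.00147, adjusted p 0.986). Nrip1 on 1434384_at read 6.21, 5.38 and 5.98 in the Nrip1-induced arrays and 6.61, 6.11 and 6.64 in the uninduced arrays, a difference of -0.59 (adjusted p 0.0969). The pooled fit over all Mouse430_2 arrays gave adjusted p of 0.0333 for this probeset of Bach1, 0.00246 for that of Nrip1 and 0.000139 for that of Pdxk.

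**Figure D5:**
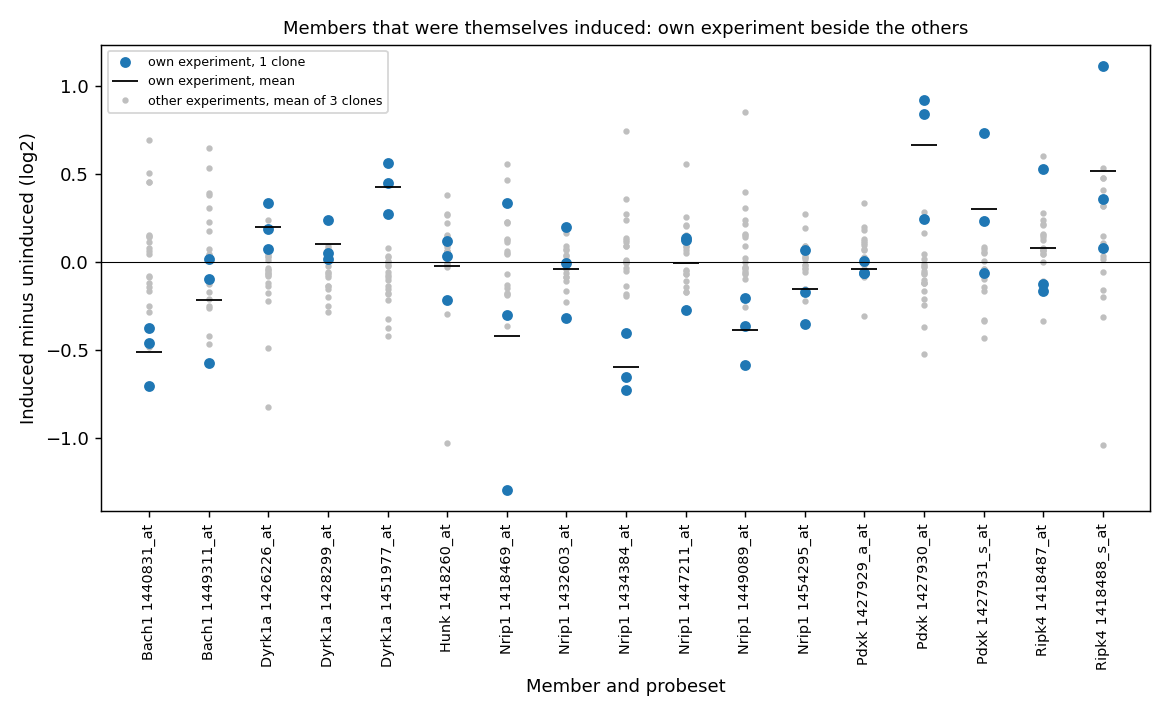
Induced minus uninduced log2 difference of the 17 probesets of the 6 members that were themselves induced; blue points are the 3 clones of the gene's own experiment, bars their mean, and grey points the means of the other experiments. The highest own-experiment means were those of Pdxk 1427930_at (0.67) and Ripk4 1418488_s_at (0.52), and the lowest those of Nrip1 1434384_at (-0.59) and Bach1 1440831_at (-0.51).

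Of the 45 members 18 passed nowhere. The group of ubiquitin, SUMO, proteasome and folding held 10 genes, with the cathepsin inhibitor Cstb placed among them. Of these, Cstb and Ube2g2 passed and 8 did not. Ranges are given for each gene's probeset of highest level. Cct8, a subunit of the TRiC chaperonin, ran between -0.07 and 0.05 over the experiments, and Ttc3, a ubiquitin ligase of Akt, between -0.09 and 0.16. Gart stayed between -0.09 and 0.13, Hmgn1, a nucleosome-binding protein, between -0.18 and 0.09, and Psmg1, a proteasome assembly chaperone, between -0.20 and 0.11. Usp16, a deubiquitinase of histone H2A, reached -0.36 with Erg, and Usp25, another deubiquitinase, ran between -0.36 with RIKEN-1810007M14 and 0.36 with Olig2, without passing. Chaf1b, a histone chaperone subunit, and Donson, a replication fork protein, had their highest values with Pdxk, 0.52 and 0.36. Pcnt, the centrosome scaffold pericentrin, ran between -0.30 with Pdxk and 0.43 with Gabpa. Ltn1, a ligase of ribosome quality control, Sumo3, a ubiquitin-like modifier, and Rwdd2b also passed nowhere. The remaining members without a call were Bace2, Ifnar1, Il10rb, Slc5a3 and Hspa13. Over these 8 genes the probesets of highest level ran between -0.41 (Hspa13 with Sim2) and 0.44 (Ifnar1 with Nrip1). Other probesets went further, such as Ltn1 1429886_at with -0.85 (Pfkl) and Slc5a3 1440227_at with 0.55 (Gabpa).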

How the data were processed

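RNA from 120 samples of mES cell clones was hybridised to Mouse430_2 arrays (114) and Mouse430A_2 arrays (6). The deposited values are log2 intensities that the authors obtained with RMA of the affy package, by experiment, per the labels and the study's methods. The version and the genome build are not given in the sources used here. RMA forces the distributions of the arrays of an experiment to be alike, which hides a shift of all genes. Probesets were named by the platform annotation, which gives 1 gene to 34958 probesets of the Mouse430_2 array, more than 1 to 932 and none to 9211 (on the Mouse430A_2 array 20393, 691 and 1606). Probesets with several genes or none stayed in the fits and were not named. 1 probeset, not a member, has no value for Sim2, which leaves 45100 there and in the fits over 19 experiments.

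Samples were grouped by gene and state from their titles. In each experiment limma 3.58.1 (R 4.3.3) fitted induced minus uninduced with the clone as a block, with adjustment over all probesets. A moderated F-test compared 19 experiments, and 1 mean difference per experiment was tested against 0. The replicate number marks 1 clone, since the study's design text states that each clone was profiled before and after induction. After removal of state means, numbers correlated above 0.1 in 54 of 60 pairs, in all 3 pairs of 15 of 20 experiments (median r 0.376). With Gabpa only 1 pair did (r 0.046, -0.18 and 0.171), so the values there do not bear out the pairing. In single experiments the p-values and SEs reflect the spread among clones, moderated by limma over all probesets. With 3 clones in each state, the number of arrays limits the precision.

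The members and lists were chosen with earlier results of these data known. Named in full were members that passed and moved alike in 3 clones (up to 10 per direction and experiment), the 10 of smallest p in the F-test, and the 6 induced members. For counts of genes, the probeset of highest mean level stands for a gene. Ranges beside a summary were chosen after values were seen. Promoter windows are from RefSeq, build GRCm38.p6. Marker lists other than those of ES cells and fibroblasts (endoderm, mesoderm, trophoblast and neural) had 0 to 1 genes called per direction with Erg and Runx1. Alternatives were a fit without the block, an ordinary equal-variance t-test, a second quantile normalization and removal of dim probesets. Further ones were trend and robust variances, a pooled fit, a threshold of 0.01 and leaving out clones or experiments. The scripts were tested on simulated data. Figures were drawn with Python 3.11.15 and matplotlib 3.10.9.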

Additional observations from a re-analysis of the deposited data

Results flagged for a closer look

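The responses of 22 members, taken on the probeset of highest level, differed among the 19 experiments on the Mouse430_2 array by limma's moderated F-test. The range between the lowest and the highest mean log2 difference was widest for Adamts1 (1.99), Jam2 (1.80), Ripk4 (1.58), Nrip1 (1.24), Bach1 (1.21) and Cryzl1 (1.16). It was 1.03 for Cstb and 1.03 for App. Ranges under 1 were found for Tiam1 (0.87), Ifnar2 (0.84), Tmem50b (0.83), Col18a1 (0.82), Synj1 (0.79), Hlcs (0.78), Chaf1b (0.73), Pcnt (0.73) and Ifnar1 (0.72). The smallest ranges among the 22 were those of Setd4 (0.56), Prmt2 (0.54), Ube2g2 (0.53), Cbr1 (0.46) and Itsn1 (0.43). Pcnt, Ifnar1 and Chaf1b had passed in no single experiment.

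In 5 genes (6 probesets, 6.45% of 93, against 2.01% of all probesets on both arrays) the responses to Erg and Runx1 both passed the test in opposite directions. The difference with Erg was 1.86 for Adamts1, 0.59 for App, -0.48 for Brwd1, -0.43 for Tmem50b and -0.39 for Ube2g2. With 1 clone left out at a time, the calls of App, Brwd1, Tmem50b and Ube2g2 with Erg each held in 1 of 3 removals, and that of Ube2g2 with Runx1 in 0. The difference between both experiments was not tested.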

How the results depend on the processing

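No call turned its direction under any setting tried, but most settings leave the mean difference itself unchanged. All 60 calls moved alike in 3 clones, so leaving out a clone could not turn them either. Only the second quantile normalization could have done so. The 19 Mouse430_2 experiments gave 43 member calls and Runx1 17. Without the replicate block the count was 21, with 0 for Aire, Nrip1, Olig2 and Sim2 each, and the F-test passed for 4 in place of 40, and the pairing of clones thus changed these counts. An ordinary equal-variance t-test gave 1 (Erg 1) and 4 for Runx1, with 0 for Aire, Nrip1, Olig2 and Sim2. It is not the Bayesian t-test (Cyber-t) that the study names, and so says nothing about the study's own counts. At an adjusted p under 0.01 the count was 17, with 16 for Erg, 4 for Runx1, 1 for Aire and 0 for Nrip1, Olig2 and Sim2. The single fit over all Mouse430_2 arrays gave 125, with 26 for Sim2, 14 for Nrip1 and 42 for the 14 experiments that otherwise had 0. Trend and robust variances gave 14 for Aire, 9 for Olig2, 5 for Sim2, 3 for Nrip1 and 1 for the 14 others. A second quantile normalization and the removal of dim probesets each gave 0 for Nrip1, and crossed numbers gave 0 for Sim2. Without 1 replicate the total ran between 19 and 73, Erg between 16 and 28, Runx1 between 8 and 9, Aire between 0 and 11, Sim2 between 0 and 3, Olig2 between 0 and 1, Nrip1 at 0, the 14 others between 0 and 39 and the F-test between 10 and 33. The 39 arose without replicate 2, as 28 with Pdxk and 11 with Gabpa. Of the 60 calls 18 held without any 1 replicate and 13 were lost whichever replicate was left out. The common response gave 0 under all its alternatives. Why these counts moved was not tested. Depth has no counterpart here, and 351 of the 2753 member tests had a level under the lower quartile of the experiment.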
